A study of Mus musculus with 10 samples.

Results

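Cholesterol and fatty acid synthesis was followed through 36 genes in RNA-seq of sorted mouse liver cells. They were a fixed list covering 6 mevalonate genes, 11 genes from squalene to cholesterol, 4 regulators, 5 fatty acid synthesis genes, 7 desaturases and elongases and 3 genes of glycerolipid assembly. All 36 were found among the 29972 genes of the deposited tables and all 36 passed the filter on low values, which kept 14765 genes. The cells were hepatocyte-derived peripheral cholangiocytes (HpC, 4 libraries), peripheral cholangiocytes (pC, 3 libraries) and hepatocytes (H, 3 libraries). Cholangiocytes are the epithelial cells of bile ducts. HpC and H came from mice of genotype Alb-Cre+/-;Rbpjf/f;Hnf6f/f, in which Cre under the albumin promoter recombines floxed Rbpj, the DNA-binding partner of Notch, and floxed Hnf6, a transcription factor of bile duct formation also called Onecut1. The albumin promoter is active in hepatocytes and in the embryonic precursors of liver epithelium. pC came from Rbpjf/f;Hnf6f/f mice without Cre, so HpC and pC differ in genotype as well as in origin. The background was mixed (C57BL/6, FVB, CD1) in all groups. The labels give ages of P124, P151, P144 and P139 for HpC1 to HpC4, P151, P119 and P142 for pC1 to pC3, and P134, P139 and P139 for H1 to H3, taken here as days after birth. The labels do not say whether H2 and H3 came from separate animals, so part of the spread within H may be technical.

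Cells build cholesterol from acetyl-CoA through mevalonate, farnesyl diphosphate and squalene, and build fatty acids from the same acetyl-CoA through malonyl-CoA. SREBP-2, encoded by Srebf2, is known mainly as the activator of sterol genes and SREBP-1, encoded by Srebf1, mainly as that of fatty acid genes. Both are held in the endoplasmic reticulum by Insig proteins when sterols are plentiful. The liver is a main site of both pathways, and hepatocytes export their products in lipoproteins and bile.

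Levels are given as TPM, an abundance per transcript length scaled to a fixed total, divided by a scaling factor for each library and called scaled TPM. Differences are on the scale log2(scaled TPM + 1), with SE, from limma with Benjamini-Hochberg adjustment over all 14765 genes at 5%. Sequencing depth is unknown, so no counting error can be given. The duct keratin Krt19 stood at 382 to 941 scaled TPM in HpC and 407 to 539 in pC and at most at 0.471 in H, and the surface marker Epcam at 101 to 179, 143 to 155 and at most 0.433. The summed level of 8 hepatocyte markers was 80462 to 92156 in H, 3033 to 5797 in HpC and 952 to 2595 in pC. The 5 adipocyte markers summed to at most 5.15 in any library, and 3 of them, Adipoq, Plin1 and Lep, were under 1 in all 10 libraries. Libraries HpC1 and HpC2 stood apart from the rest. In HpC1, 5 pancreatic acinar genes summed to 150785 scaled TPM, against at most 684 elsewhere. In HpC2, 5 squamous epithelial genes summed to 37929, against at most 12.5 elsewhere. In bulk samples of this kind, fewer cells of a type and less RNA per cell cannot be told apart.

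Promoters of the members are shown first because many of these genes are known targets of shared factors. RefSeq's table (GRCm38.p6) held promoters for 28 of the 36 genes, and the 250 bases before each start were searched on both strands. The E-box CACGTG was found in 5 of 28 genes (17.9%), against 6.86% of the 27025 genes in the table. The CCAAT box was found in 24 of 28 (85.7%, against 37.5%). The motif TCACNCCAC, a form of the sterol regulatory element, was found in 1 of 28, Hmgcs1 (3.57%, against 1.22%). Stretches around the E-box of 4 genes and the TCACNCCAC match of Hmgcs1 follow, each 5′ to 3′ on the gene's strand. Capitals mark every match to the 3 motifs, and no 2 printed matches overlap.
Hmgcs1: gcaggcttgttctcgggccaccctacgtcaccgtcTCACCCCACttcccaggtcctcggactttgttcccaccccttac
Insig1: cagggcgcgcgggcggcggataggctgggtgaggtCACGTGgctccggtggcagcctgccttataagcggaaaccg
Hsd17b7: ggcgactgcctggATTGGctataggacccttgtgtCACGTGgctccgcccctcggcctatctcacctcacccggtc
Sc5d: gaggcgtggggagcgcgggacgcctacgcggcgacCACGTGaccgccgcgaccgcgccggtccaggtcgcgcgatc
Elovl5: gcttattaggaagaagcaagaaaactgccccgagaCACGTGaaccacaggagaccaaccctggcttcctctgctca
The Hmgcs1 stretch lies at chr13:119690179-119690257 on the plus strand and that of Insig1 at chr5:28071276-28071351, plus. That of Hsd17b7 lies at chr1:169969308-169969383, minus, that of Sc5d at chr9:42264358-42264433, minus, and that of Elovl5 at chr9:77917169-77917244, plus. In each E-box stretch the motif begins between 98 and 161 bases before the annotated start, and no GENCODE exon overlaps any of the stretches printed. In the results below, all 5 genes with an E-box, the fifth being Dhcr7, were lower in HpC than in H. So were 15 of the 23 other genes with a promoter, against 29.2% of all genes. Between pC and H all 5 and 13 of the 23 were lower, against 28.6% of all genes. Whether the motif has a part in these calls was not tested. These are descriptions of letters in a window, not binding sites.

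Hepatocyte-derived and ordinary cholangiocytes differed in 2 of the 36 genes, Fads1 and Fads2, both lower in HpC. That is 5.56% of the members, against 4.54% of all genes called in either direction in this comparison (2.55% lower and 1.99% higher), so the share is near the background. Markers of other cells moved with this comparison: 5 stellate and fibroblast markers summed to 19.99 to 61.3 scaled TPM in HpC and 11.5 to 14.9 in pC, and 4 mesothelial markers to 25.6 to 40.9 and 5.74 to 15.5. The 8 hepatocyte markers summed to 3033 to 5797 in HpC and 952 to 2595 in pC. None of these pairs of ranges overlapped, and the part of these cells in the result was not tested. The median of the 8 hepatocyte markers as a percentage of the H level did overlap, at 0.239% to 4.79% in HpC and 0.227% to 1.44% in pC. None of the 36 was higher in HpC by limma with adjustment, 1 was at an unadjusted p under 0.05, and 1 was with array weights. The median difference over the 36 genes was -0.31, against -0.01 over all genes tested. Both genes encode front-end desaturases that make long-chain polyunsaturated fatty acids, and they lie near each other on mouse chromosome 19. Fads2 (ENSMUSG00000024665, mm10 chr19:10062765-10101746, minus strand) and Fads1 (ENSMUSG00000010663, chr19:10182888-10196877, plus strand) are 81141 bases apart.

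Fads2, the delta-6 desaturase, stood at 28.2, 20.9, 29.9 and 21.6 scaled TPM in the 4 HpC libraries, in order of their numbers, at 81.3, 70.01 and 60.96 in pC and at 332, 264 and 205 in H. Every HpC library was below every pC library, and every pC library below every H library. The difference between HpC and pC was -1.46 ± 0.20 (limma adjusted p = 0.00357). Without HpC1 and HpC2 it was -1.40 (limma adjusted p = 0.0210). Fads1, the delta-5 desaturase, was at 16.98, 9.35, 15.7 and 7.60 in HpC, 29.5, 26.3 and 22.9 in pC and 218, 193 and 163 in H, with the same order of groups and no overlap. Its difference between HpC and pC, -1.08 ± 0.26 (limma adjusted p = 0.0456), lay just inside the threshold. It no longer passed without HpC1 and HpC2 together (-1.14, limma adjusted p = 0.0717), nor without any single library except HpC1 (highest adjusted p over all alternatives 0.167). Against H, Fads1 was lower in HpC by -3.90 ± 0.26 (limma adjusted p = 8.10e-07) and Fads2 by -3.35 ± 0.20 (adjusted p = 4.77e-07). Between pC and H the differences were -2.82 ± 0.28 for Fads1 (limma adjusted p = 1.22e-05) and -1.88 ± 0.22 for Fads2 (adjusted p = 3.87e-05), and the latter ended on TPM as deposited (-0.33, adjusted p = 0.414).

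The remaining 34 genes did not pass between HpC and pC, which does not show that they were equal: their SE ran from 0.15 to 0.75 on the log2 scale. In 4 of the 36 genes (11.1%) the HpC and pC libraries did not overlap, against 16.5% of all genes. Besides Fads1 and Fads2 these were Srebf1 and Gpam, named here after their values were seen. Gpam, the mitochondrial enzyme that adds the first acyl chain to glycerol phosphate, was at 14.6, 10.5, 12.9 and 13.7 scaled TPM in HpC and 21.8, 21.998 and 16.6 in pC. Its difference was -0.60 ± 0.15 (limma adjusted p = 0.0606), and it passed under 3 of the alternatives. Srebf1 differed by -0.84 ± 0.22 (limma adjusted p = 0.0675).

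**Figure D1:**
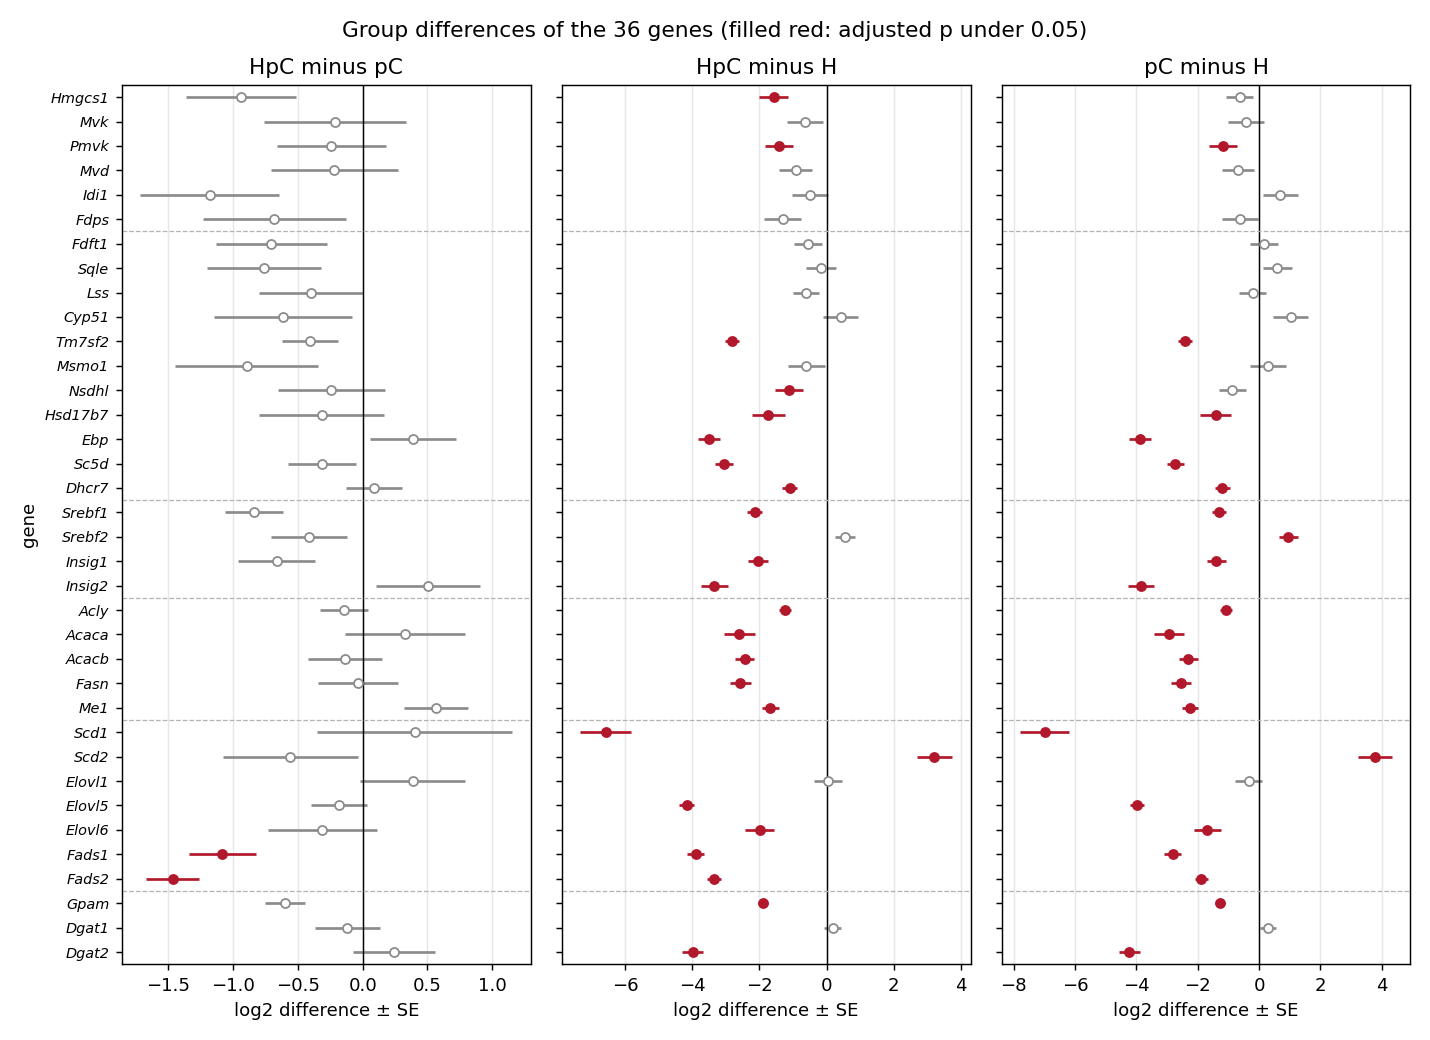
Differences of the 36 genes between groups on the log2(scaled TPM + 1) scale, in pathway order from top to bottom, with SE bars; filled red points passed limma's adjusted p under 0.05 and dashed lines separate the branches. HpC and pC differed in Fads1 and Fads2, while 24 genes passed between HpC and H and 23 between pC and H.

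Against hepatocytes the picture was wide. Of the 36 genes 23 were lower in HpC than in H, 1 was higher and 12 did not pass, so that 66.7% were called, against 59.9% of all genes (29.2% lower and 30.7% higher). Between pC and H, 21 were lower, 2 higher and 13 did not pass, or 63.9%, against 59.6% of all genes (28.6% lower and 31.1% higher). These comparisons share the H libraries and are not independent of each other. The median difference of the members was -1.62 between HpC and H and -1.24 between pC and H, against 0.08 and 0.11 over all genes. Groups did not overlap for 23 genes (63.9%) between HpC and H, against 60.5% of all genes, and for 25 (69.4%) between pC and H, against 70.3%. The direction rests partly on the scaling between libraries. On TPM as deposited the median of all genes itself moved to 0.868 between HpC and H, 1.1999 between pC and H and -0.36 between HpC and pC. The calls then became 14 lower and 4 higher between HpC and H, and 9 lower and 10 higher between pC and H. Without HpC1 and HpC2, 24 genes were lower and 2 higher between HpC and H.

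Over all genes, 29.2% were lower in HpC than in H and 28.6% were lower in pC. Beside these shares, the branches differed in how many genes were called. All 5 fatty acid synthesis genes were lower in both HpC and pC than in H. Of the 7 desaturases and elongases, 5 were lower and Scd2 was higher in both cholangiocyte groups. Of the 6 mevalonate genes, 2 were lower in HpC (33.3%) and 1 in pC (16.7%), near or below the share of all genes. Among the 11 genes from squalene to cholesterol, 6 were lower in HpC and 5 in pC, and none of the 17 mevalonate and sterol genes was higher in either. Counts of calls also depend on the SE. Between HpC and H the median difference was -1.11 for mevalonate genes (SE 0.42 to 0.55) and -1.10 for those from squalene to cholesterol (SE 0.21 to 0.55). For the fatty acid synthesis genes it was -2.44 (SE 0.18 to 0.46). Fewer calls among the mevalonate genes therefore do not show that they were at the level of H. The difference between branches was not tested.

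Acly, ATP citrate lyase, which makes cytosolic acetyl-CoA, stood at 61.02, 81.3, 88.2 and 90.7 scaled TPM in HpC, 80.7, 77.7 and 108 in pC and 205, 195 and 166 in H. Every H library was above every cholangiocyte library, and the differences from H were -1.23 ± 0.18 in HpC (limma adjusted p = 0.000225) and -1.09 ± 0.20 in pC (adjusted p = 0.000842). Neither passed on TPM as deposited, where the values were -0.11 and 0.46. Fasn, fatty acid synthase, was at 30.6, 74.1, 57.9 and 33.5 in HpC, 36.8, 45.2 and 62.4 in pC and 299, 287 and 248 in H. It was lower by -2.57 ± 0.31 in HpC (limma adjusted p = 4.59e-05) and -2.53 ± 0.33 in pC (adjusted p = 8.50e-05) than in H, and the groups did not overlap. On TPM as deposited the pC difference was -0.99 (limma adjusted p = 0.0728). Me1, the cytosolic malic enzyme that supplies NADPH, averaged 24.98 ± 8.86 in HpC (SD, n = 4), 15.9 ± 2.29 in pC (n = 3) and 78.6 ± 7.40 in H (n = 3). It was lower than in H by -1.67 ± 0.25 in HpC (limma adjusted p = 0.000198) and -2.24 ± 0.26 in pC (adjusted p = 4.20e-05); on TPM as deposited neither passed (adjusted p = 0.246 and 0.150).

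Both acetyl-CoA carboxylases were lower than in H. Acaca, whose product feeds fatty acid synthase, stood at 14.1, 80.2, 34.4 and 42.4 scaled TPM in HpC, 28.96, 29.9 and 26.9 in pC and 187, 323 and 185 in H. Acacb, the mitochondrial form that restrains fatty acid import for oxidation, stood at 6.27, 2.31, 3.33 and 3.29, 3.39, 4.81 and 4.04 and 24.6, 32.5 and 17.1. All H libraries lay above all others for both genes, and the HpC values of Acaca were far more spread than those of pC. The differences from H were -2.60 ± 0.46 in HpC and -2.93 ± 0.49 in pC for Acaca (limma adjusted p = 0.00072 and 0.00053). For Acacb they were -2.44 ± 0.28 and -2.30 ± 0.30 (limma adjusted p = 3.86e-05 and 9.68e-05). On TPM as deposited the Acaca difference of pC was -1.39 and no longer passed (limma adjusted p = 0.0565).

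**Figure D2:**
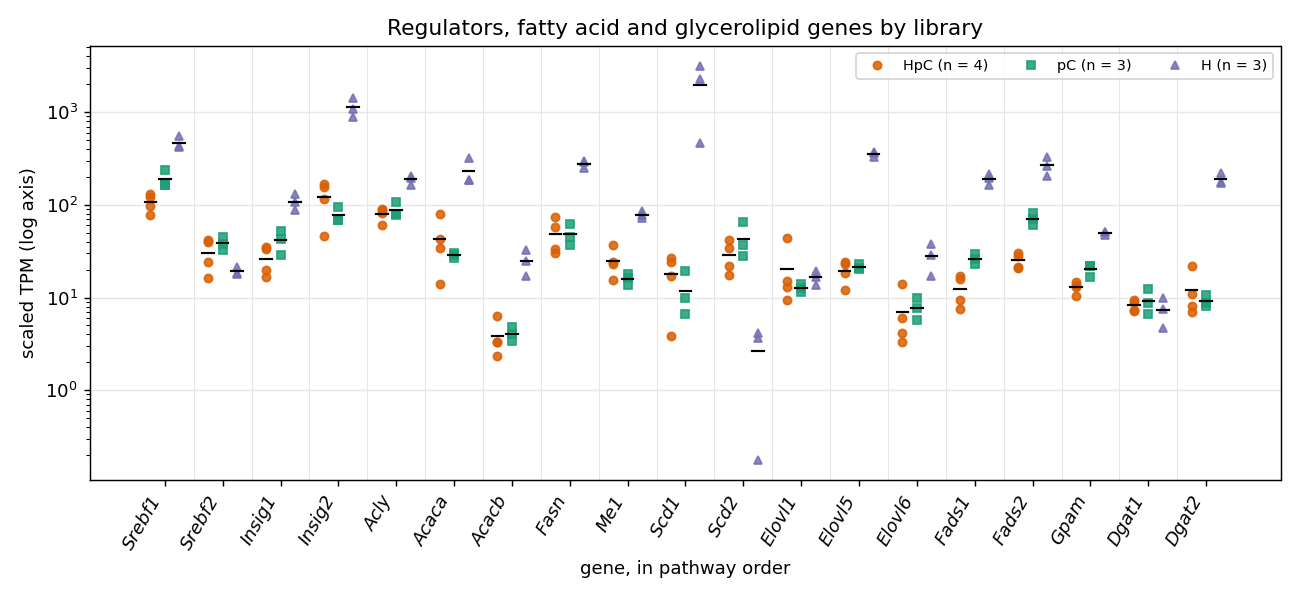
Level of the regulators, fatty acid synthesis genes, desaturases, elongases and glycerolipid genes as scaled TPM on a log axis, with 1 point per library and black bars at group means. Scd1 was at 465 to 3182 scaled TPM in H and at 3.83 to 26.7 in HpC, and Scd2 ran the other way.

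The 2 stearoyl-CoA desaturase genes on the list went in opposite directions. Both enzymes place a double bond in saturated fatty acids, and the genes lie 87590 bases apart on chromosome 19 (Scd2, ENSMUSG00000025203, chr19:44293674-44306864, plus strand; Scd1, ENSMUSG00000037071, chr19:44394455-44407879, minus strand). Scd1 stood at 23.9, 17.2, 26.7 and 3.83 scaled TPM in HpC, 9.85, 19.2 and 6.65 in pC and 465, 3182 and 2303 in H. It was high in all 3 H libraries but far lower in H1 than in H2 and H3, and low in all 7 cholangiocyte libraries. Its difference from H was -6.59 ± 0.75 in HpC (limma adjusted p = 3.31e-05) and -6.99 ± 0.80 in pC (adjusted p = 3.64e-05), the largest of any member in both comparisons. Scd2 was at 17.5, 41.5, 34.5 and 21.7 in HpC, 64.9, 27.8 and 36.8 in pC and 0.176, 4.14 and 3.62 in H. Every cholangiocyte library was above every H library, by 3.22 ± 0.52 in HpC (limma adjusted p = 0.000403) and 3.78 ± 0.56 in pC (adjusted p = 0.000221). Both directions held on TPM as deposited, and without HpC1 and HpC2. Their transcripts are alike, with 95.5% identity over 623 aligned bases, so short reads may be shared between these genes. Scd2 was highest in H2 and lowest in H1, as was Scd1, and the part of shared reads was not tested.

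Scd1 in cholangiocytes is given beside hepatocyte markers, since the levels of these markers differed between libraries. Scd1 in HpC stood at 0.193% to 1.35% of its mean level in H, and in pC at 0.336% to 0.967%. The median of 8 hepatocyte markers stood at 0.239% of its H level in HpC4 and 0.227% in pC3, and at 1.07% to 4.79% in the other 5 cholangiocyte libraries. HpC4 and pC3 also had the lowest Scd1 of their groups. The part of hepatocyte RNA in these low levels was not tested.

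Elongases were not uniform. Elovl5, which extends polyunsaturated chains, stood at 18.4, 24.2, 22.9 and 12.1 scaled TPM in HpC, 23.2, 20.96 and 20.1 in pC and 367, 368 and 329 in H. The cholangiocyte libraries all lay far under the H libraries, by -4.17 ± 0.21 in HpC (limma adjusted p = 1.90e-07) and -3.99 ± 0.23 in pC (adjusted p = 3.48e-07). Elovl6, which extends palmitate to stearate, averaged 6.90 ± 4.96 in HpC, 7.80 ± 2.11 in pC and 28.2 ± 10.6 in H (SD, n = 4, 3 and 3). It was lower in HpC by -1.997 ± 0.42 (limma adjusted p = 0.00212) and in pC by -1.69 ± 0.45 (adjusted p = 0.00841), and neither passed on TPM as deposited (adjusted p = 0.107 and 0.686). Elovl1, an elongase of very long saturated chains, did not pass in any comparison and stood at 20.2 ± 15.6, 12.8 ± 1.22 and 16.5 ± 2.85; on TPM as deposited it was higher than in H in both groups (1.10 and 1.11, adjusted p = 0.0454 and 0.0491).

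The last step of triglyceride synthesis has 2 unrelated enzymes, and they showed different levels. Dgat2 stood at 11.02, 21.7, 8.16 and 7.05 scaled TPM in HpC, 8.64, 10.6 and 8.16 in pC and 170.2, 222 and 176 in H. It was lower than in H by -3.99 ± 0.31 in HpC (limma adjusted p = 2.32e-06) and -4.23 ± 0.33 in pC (adjusted p = 2.51e-06), with no overlap. Dgat1 was at 7.34, 7.23, 8.97 and 9.37 in HpC, 6.62, 8.76 and 12.3 in pC and 4.74, 7.52 and 9.86 in H, the groups overlapped, and it did not pass in either comparison (limma adjusted p = 0.554 and 0.359). Its complete coding transcript held 36.3% of its TPM on average, and the rest lay on transcripts annotated as retained introns or processed transcripts. On the complete coding transcript alone it was lower than in H by -0.76 in both HpC and pC (adjusted p = 0.00189 and 0.00305), and on TPM as deposited it was higher by 1.15 and 1.66. Gpam stood at 50.96, 47.8 and 51.4 in H, above every cholangiocyte library, and differed from it by -1.88 ± 0.15 in HpC (limma adjusted p = 3.16e-06) and -1.28 ± 0.17 in pC (adjusted p = 8.25e-05), the latter at 0.23 on TPM as deposited (adjusted p = 0.546).

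Of the regulators, Srebf1 and both Insig genes were lower than in H, while Srebf2 was not. Srebf2 stood at 16.3, 41.4, 39.7 and 24.3 scaled TPM in HpC, 32.9, 38.1 and 45.1 in pC and 21.4, 18.2 and 18.3 in H. All pC libraries were above all H libraries, and HpC1 was below them. Srebf2 was higher in pC than in H by 0.96 ± 0.31 (limma adjusted p = 0.0223), a call that ended without pC2, pC3, H2 or H3 (highest adjusted p 0.0712). In HpC the difference was 0.54 ± 0.29 (limma adjusted p = 0.133), and without HpC1 and HpC2 it was 0.79 and passed (adjusted p = 0.0165).

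Srebf1 was at 77.6, 121, 131 and 96.9 scaled TPM in HpC, 241, 165 and 166 in pC and 432, 419 and 551 in H, with no overlap between any 2 groups. It was lower than in H by -2.14 ± 0.22 in HpC (limma adjusted p = 1.65e-05) and -1.30 ± 0.24 in pC (adjusted p = 0.000878). Transcripts with a complete coding sequence held 4.80% of its TPM on average, and on them the order was different. They stood at 5.69, 6.97, 8.12 and 5.77 in HpC, 12.4, 9.00 and 9.45 in pC and 11.7, 8.44 and 9.53 in H. The HpC libraries were below all others, with a difference from H of -0.50 (limma adjusted p = 0.0238), while pC and H overlapped (0.07, adjusted p = 0.739). On TPM as deposited the whole-gene difference between pC and H was 0.25 (limma adjusted p = 0.596).

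Insig1, itself a target of SREBPs, stood at 20.03, 33.4, 34.98 and 16.6 scaled TPM in HpC, 28.6, 42.95 and 52.6 in pC and 129.7, 107 and 88.9 in H. Insig2, known for a liver form that responds to fasting and insulin, stood at 155, 46.5, 169 and 115, 68.5, 95.9 and 67.98 and 898, 1084 and 1435. For both genes every H library was above every cholangiocyte library, and HpC2 had the lowest Insig2 of the HpC libraries. Insig1 was lower than in H by -2.05 ± 0.30 in HpC and -1.39 ± 0.32 in pC (limma adjusted p = 0.00018 and 0.00358), and neither passed on TPM as deposited (-0.94 and 0.14, adjusted p = 0.0639 and 0.777). Insig2 was lower by -3.35 ± 0.40 and -3.85 ± 0.43 (limma adjusted p = 4.55e-05 and 2.77e-05). On complete coding transcripts, 5.11% of its TPM on average, the Insig2 differences were -3.47 and -3.46.

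The balance of paired genes within a library does not depend on the scaling apart from the pseudocount. It was compared for 6 pairs in 3 comparisons by two-sided exact permutation tests. Genes of a pair have like functions but need not be related, as with Dgat1 and Dgat2. The log2 ratio of Scd1 to Scd2 averaged 8.96 ± 0.32 in H (SD, n = 3), -0.85 ± 1.14 in HpC (n = 4) and -1.81 ± 1.13 in pC (n = 3). The ratio of Dgat1 to Dgat2 averaged -4.55 ± 0.46 in H, -0.38 ± 0.82 in HpC and -0.02 ± 0.48 in pC, and that of Srebf1 to Srebf2 4.52 ± 0.29, 1.84 ± 0.29 and 2.26 ± 0.51. For these 3 pairs HpC and H did not overlap, nor for Fads1 to Fads2, and the 3 stood at the smallest p that 4 against 3 libraries allow (exact permutation p = 0.0286, adjusted p = 0.171 over the 18 comparisons). None of the 18 passed after adjustment, and 3 against 3 libraries cannot go below 0.1. Between HpC and pC all 6 pairs overlapped. These ratios use all transcripts, and complete coding ones held 4.80% of Srebf1 and 36.3% of Dgat1 TPM on average. On complete coding transcripts Srebf1 stood at 5.69 to 8.12 scaled TPM in HpC, 9.00 to 12.4 in pC and 8.44 to 11.7 in H. Srebf2 stood at 16.3 to 41.4, 32.9 to 45.1 and 18.2 to 21.4, above Srebf1 in every library. Dgat1 stood at 1.79 to 2.81, 1.86 to 2.42 and 3.52 to 5.33, below Dgat2 in every library. The ratios were not tested on these transcripts.

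**Figure D3:**
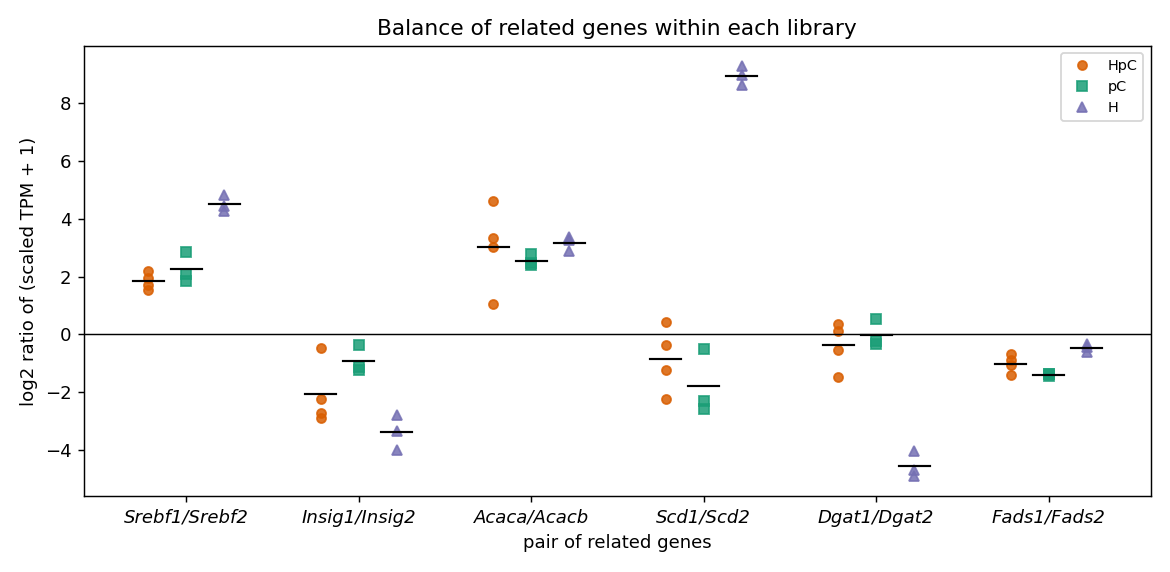
Log2 ratio of the 2 genes of each pair within each library, from scaled TPM + 1, with 1 point per library and black bars at group means. Scd1 outweighed Scd2 in all 3 H libraries, with a mean of 8.96, and the mean ratio was below 0 in HpC and pC.

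In the mevalonate segment fewer genes were called. Hmgcs1, the cytosolic synthase that commits acetyl-CoA units to the pathway, stood at 19.4, 81.2, 70.7 and 40.8 scaled TPM in HpC, 78.6, 82.1 and 112 in pC and 127, 120.1 and 181 in H. Every H library was highest, but the difference passed only for HpC (-1.58 ± 0.42, limma adjusted p = 0.00864), and not on TPM as deposited (-0.45, adjusted p = 0.488). For pC it was -0.64 ± 0.45 (limma adjusted p = 0.25). Fdps, which joins the isoprenoid units into farnesyl diphosphate, was at 20.5, 96.7, 51.6 and 16.8 in HpC, 55.98, 47.96 and 76.5 in pC and 147, 84.7 and 60.6 in H. Its groups overlapped, and the differences from H were -1.30 ± 0.55 in HpC (limma adjusted p = 0.0648) and -0.62 ± 0.59 in pC (adjusted p = 0.39). Without HpC1 and HpC2, Fdps was lower in HpC than in H by -1.47 (limma adjusted p = 0.0339). The isomerase gene Idi1 averaged 75.5 ± 44.9 in HpC, 150.2 ± 43.3 in pC and 101 ± 57.8 in H (SD, n = 4, 3 and 3), and did not pass, though on TPM as deposited it was higher in pC than in H (2.23, limma adjusted p = 0.0100). The kinase gene Pmvk was lower in HpC by -1.42 ± 0.42 (limma adjusted p = 0.0141) and in pC by -1.18 ± 0.45 (adjusted p = 0.0435), with means of 12.9 ± 8.44, 13.5 ± 3.30 and 31.4 ± 4.02 scaled TPM. Neither Pmvk call held on TPM as deposited (adjusted p = 0.594 and 0.624), and that of pC ended without any single library except HpC1 and HpC2. Mvk and Mvd, the kinase and decarboxylase on either side of it, did not pass, with library values from 2.93 to 18.1 and from 1.76 to 16.7.

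Between squalene and cholesterol, 5 of the 11 enzymes did not pass against H in either group: Fdft1, Sqle, Lss, Cyp51 and Msmo1. Sqle, squalene epoxidase, was at 9.43, 30.1, 32.2 and 13.6 scaled TPM in HpC, 27.9, 32.7 and 38.7 in pC and 34.04, 22.7 and 12.4 in H. The 3 groups overlapped, with differences from H of -0.17 ± 0.44 in HpC and 0.60 ± 0.47 in pC (limma adjusted p = 0.762 and 0.296). On TPM as deposited, where the median of all genes moved upward as given above, all 5 were higher in pC than in H, by 1.28 for Lss to 2.57 for Cyp51. The lanosterol demethylase gene Cyp51 averaged 81.3 ± 47.2 in HpC, 109.8 ± 39.1 in pC and 54.96 ± 27.1 in H (SD, n = 4, 3 and 3), and without HpC1 and HpC2 in the fit it was higher in pC than in H by 1.12 (limma adjusted p = 0.0444). The methylsterol oxidase gene Msmo1 averaged 127 ± 91.3, 189.8 ± 37.9 and 160.01 ± 54.6.

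The other 6 were lower in HpC than in H, and 5 of them, all but Nsdhl, were lower in pC. Ebp, the sterol isomerase, stood at 20.8, 36.002, 18.7 and 10.7 scaled TPM in HpC, 18.3, 15.96 and 11.2 in pC and 259, 238 and 208 in H. The H libraries lay far above all others, and the differences were -3.50 ± 0.33 in HpC (limma adjusted p = 8.54e-06) and -3.89 ± 0.35 in pC (adjusted p = 6.94e-06). The desaturase gene Sc5d differed by -3.05 ± 0.26 and -2.74 ± 0.28 (limma adjusted p = 4.51e-06 and 1.63e-05), and averaged 18.03 ± 6.92 in HpC, 21.6 ± 3.04 in pC and 148 ± 8.19 in H. The reductase gene Tm7sf2 differed by -2.81 ± 0.21 and -2.41 ± 0.23 (limma adjusted p = 1.96e-06 and 9.55e-06). The calls of those 3 genes held under every alternative that was run. Dhcr7, the last reductase of one route to cholesterol, was lower by -1.10 ± 0.21 in HpC and -1.19 ± 0.23 in pC (limma adjusted p = 0.00131 and 0.00127), but not on TPM as deposited (-0.02 and 0.28). Hsd17b7, a ketosteroid reductase, was lower by -1.73 ± 0.48 and -1.42 ± 0.52 (adjusted p = 0.0104 and 0.0361). On TPM as deposited neither Hsd17b7 call held (-0.68 and 0.01, adjusted p = 0.268 and 0.985), and that of pC ended without pC1, pC2 or any single H library. The demethylation gene Nsdhl was lower in HpC by -1.12 ± 0.41 (limma adjusted p = 0.0381) and did not pass in pC (-0.87 ± 0.44, adjusted p = 0.112). The HpC call ended without any single library except HpC2, HpC3 and H3, and on TPM as deposited (-0.09, adjusted p = 0.874).

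**Figure D4:**
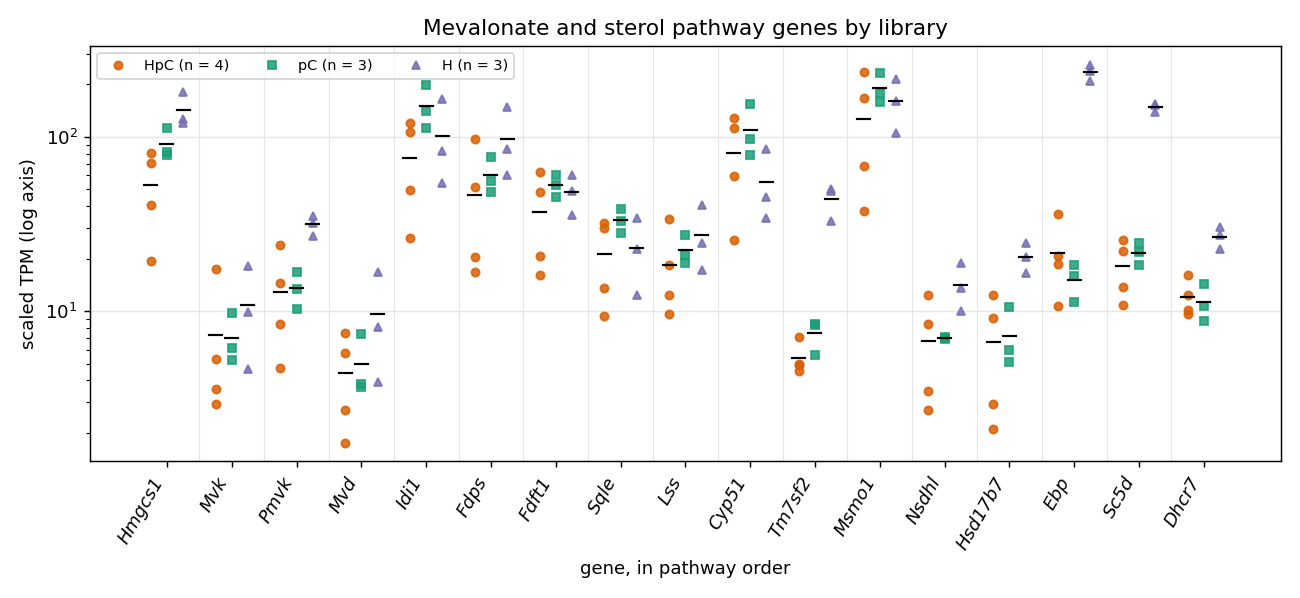
Level of the 17 mevalonate and sterol pathway genes as scaled TPM on a log axis, with 1 point per library and black bars at group means. The H libraries of Tm7sf2, Ebp and Sc5d lie clear of the others, while those of Fdft1 to Cyp51 overlap with them.

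Within the groups the mevalonate and sterol genes differed from library to library. The ratio of the highest to the lowest HpC library had a median of 4.27 over the 17 genes, against 1.74 over 11603 kept genes at 1 scaled TPM or more in every HpC library. In pC the medians were 1.59 and 1.36, and in H 1.90 and 1.33. HpC2 was the highest HpC library for 15 of the 17 genes, and HpC1 was the lowest for 9 and HpC4 for 7. Summed over the 17 genes, the level was 230.5 scaled TPM in HpC1, 931 in HpC2, 720.3 in HpC3 and 338 in HpC4. The 5 acinar genes summed to 105 in HpC3 and 7.46 in HpC4, and the squamous genes stood out in HpC2 alone. In pC the sums ran from 669 to 1005. Among hepatocytes, H1 was the highest for 13 of the 17 genes and H3 the lowest for 14, with sums of 1453 in H1, 1142 in H2 and 989 in H3. H1 was at the same time the lowest H library for Scd1 and Scd2. Whether the acinar genes of HpC1, the squamous genes of HpC2 or anything else moved with these differences between libraries of a group was not tested.

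**Figure D5:**
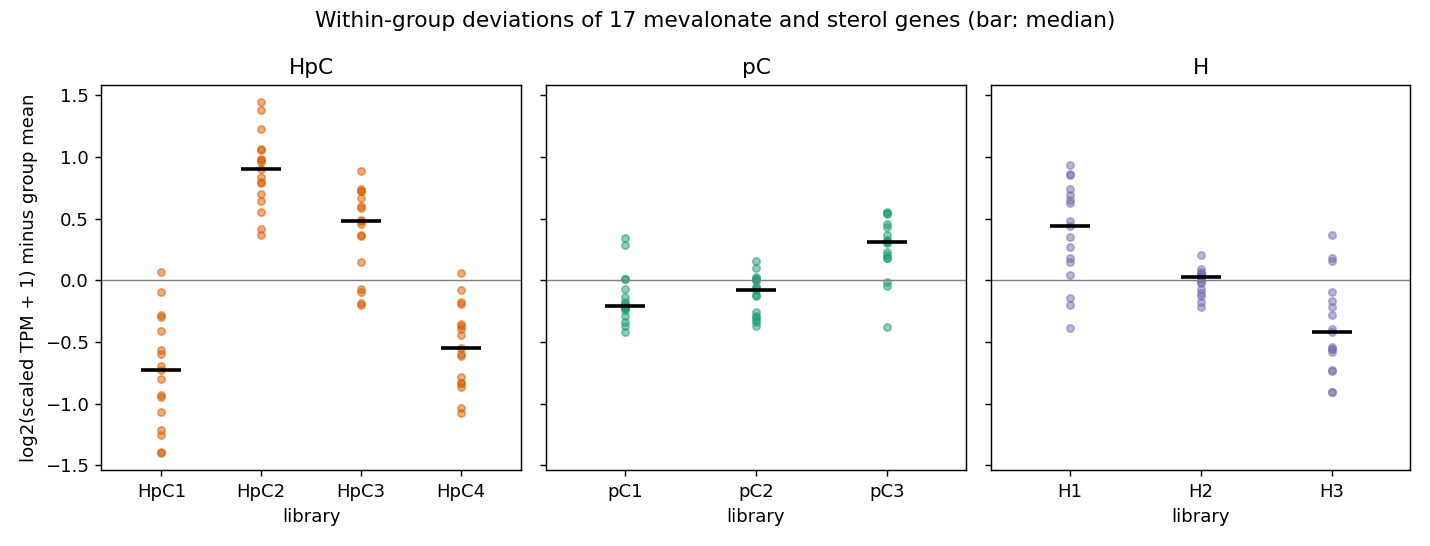
Deviation of the 17 mevalonate and sterol genes from their group mean on the log2(scaled TPM + 1) scale, with 1 point per gene in each library and a black bar at the median. The medians were -0.73, 0.90, 0.48 and -0.55 in HpC1 to HpC4, -0.21, -0.08 and 0.31 in pC1 to pC3, and 0.44, 0.02 and -0.42 in H1 to H3.

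Other genes of the pathway were counted in the same fit. Of 29 further genes, 28 passed the filter, and none was called between HpC and pC (limma; 7 were at an unadjusted p under 0.05, 5 were called with array weights and 1 on TPM as deposited). Against H, 16 of the 28 were lower and 4 higher in HpC, where 59.9% of all genes were called, and 17 were lower and 4 higher in pC, where 59.6% were. The pC count became 8 lower and 10 higher on TPM as deposited, and 7 were then higher in HpC. Among the largest changes were those of Thrsp, a lipogenic nuclear protein gene (in scaled TPM, means of 3.28 ± 2.46 for HpC, 2.64 ± 0.455 for pC and 229 ± 47.3 for H; SD, n = 4, 3 and 3), and of Elovl2, an elongase of polyunsaturated chains (2.72 ± 1.27, 0.819 ± 0.500 and 77.7 ± 11.3). Mlxipl, which encodes the carbohydrate-responsive factor ChREBP, stood at 15.8, 6.38, 10.4 and 11.96 in HpC, 7.77, 9.47 and 9.32 in pC and 152, 102 and 138 in H. The H libraries were all above the others, and the differences were -3.48 ± 0.26 in HpC (limma adjusted p = 1.65e-06) and -3.73 ± 0.28 in pC (adjusted p = 1.64e-06). Named after their values were seen, the genes higher than in H in both cholangiocyte groups were Elovl7, Soat1 and Lbr, joined by Lpin3 in HpC and Nr1h2 in pC. Elovl7, another elongase, stood at 8.32 ± 0.791 in HpC and 9.12 ± 0.384 in pC, and at 0.191 to 0.266 in H.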

How the data were processed

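RNA-seq was measured in 10 libraries of sorted mouse liver cells. The authors deposited TPM per Ensembl transcript, 85276 transcripts in each library. The submitters' processing notes name kallisto, DESeq and mm10, and their versions and roles are not given in the sources used here. Of the transcripts, 81927 matched GENCODE M21 and were summed to 29972 genes, and the unmatched ones held 4.22% to 9.06% of TPM. No counts were used, so depth and counting error are unknown. Between libraries TPM was scaled by a trimmed mean of log ratios (trim of 30% of ratios and 5% of levels), with factors of 0.668 to 1.61 in HpC, 1.53 to 1.59 in pC and 0.499 to 0.585 in H. Genes at 1 TPM or more in at least 3 libraries were kept, and log2(scaled TPM + 1) was fitted with limma (eBayes trend) on all 10 libraries together, using limma 3.58.1 and R 4.3.3. The script was tested on simulated data. Gene pairs were compared by exact permutation tests in Python 3.11.15. Near copies of member transcripts were found with blastn 2.17.0.

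Alternatives were other scalings, pseudocount, filters, a fit of 2 groups, array weights, a replicate block and leaving out libraries. A fit on complete coding transcripts was chosen after seeing the data. Members and lists were chosen with earlier results of these data known. Values in every library are given for genes called between HpC and pC, for the 4 largest changes in each direction against H, for the 6 pairs and for Hmgcs1, Sqle, Fdps, Acly and Fasn. Of the further genes of the pathway, 1 that this rule would name is not reported here by name.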

Additional observations from a re-analysis of the deposited data

Results flagged for a closer look

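In 3 of the 36 genes, 1 HpC library lay apart from the other 3 by more than Dixon's 95% limit for 4 values, which is set on the gap over the range, and in all 3 it was HpC2 that was high. For normally distributed values, chance alone gives about 1 such group in 20, and the values used here were scaled TPM without a log. The share over all genes is not given, so these 3 genes are not shown to be unusual. Mvk stood at 17.4 scaled TPM in HpC2 and at 2.93 to 5.34 in the others (gap over range 0.833). Tm7sf2 stood at 7.11 in HpC2 and at 4.53 to 4.96 in the others (0.835), but on complete coding transcripts HpC2 was the lowest, at 0.256 against 0.444 to 1.27. Elovl1 stood at 43.4 in HpC2 and at 9.45 to 15.0 in the others (0.836). HpC2 is the library with the squamous epithelial genes, whose part in these values was not tested.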

How the results depend on the processing

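Of the calls named in the report, 15 of 24 between HpC and H, 1 of 2 between HpC and pC and 10 of 23 between pC and H kept direction and threshold under every alternative run, and 23, 1 and 19 did so when TPM as deposited was set aside. The cause of the changes below was not tested. Between pC and H, these differences changed sign on TPM as deposited: Acly 0.46, Acsl3 1.47, Acss2 0.38, Dhcr7 0.28, Elovl1 1.11, Gpam 0.23, Gpat4 0.52, Hsd17b7 0.013, Insig1 0.14, Lss 1.28, Pmvk 0.31 and Srebf1 0.25. Differences that passed in neither setting also changed sign there: Fdps 0.92, Hmgcs1 0.91, Mvd 0.62, Mvk 0.93 and Nsdhl 0.53 among the members and Aacs 0.43 among the further genes, for 14 of 36 members in all. Between HpC and H 7 members changed sign (Fdft1, Idi1, Lss, Msmo1, Mvd, Mvk and Sqle) and between HpC and pC 6, none of them called in either setting. On complete coding transcripts Dgat1 became -0.76 against H in both HpC and pC, and Srebf1 0.072 between pC and H. On TPM as deposited the members became 4 higher and 14 lower between HpC and H, and 10 higher and 9 lower between pC and H. The further genes of the pathway became 7 higher between HpC and H, 10 higher and 8 lower between pC and H, and 1 called, lower, between HpC and pC. Of the members, 1 was called between HpC and pC, and it was lower, with median of log ratios scaling, with a pseudocount of 0.1, with no filter, with only the 2 groups in the fit and without HpC1 and HpC2. Array weights gave 4 called members between HpC and pC, of which 1 was higher, and 2 higher between HpC and H, as did leaving out HpC1 and HpC2. Of the further genes, array weights called 5 between HpC and pC, 4 higher and 1 lower, scaling to the protein-coding total called 1, lower, and a filter of at least 5 TPM left 2 higher between HpC and H. Leaving out 1 library gave 1 to 2 members called between HpC and pC and 1 to 2 lower, 1 to 2 higher between HpC and H and 1 to 2 higher between pC and H, and 0 to 1 further genes called between HpC and pC, 0 to 1 higher and 0 to 1 lower.

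With the replicate number as a block, 1 member was called between HpC and pC, 1 higher and 22 lower between HpC and H, and 2 higher and 21 lower between pC and H. The correlation of same-numbered libraries across genes ran from -0.05 to 0.08, so the numbers were not taken to pair the samples. Depth could not be weighed, since no counts were used.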

Other observations

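How a gene's level is spread over its transcripts differed widely among the 36 genes. In 14 of them 1 transcript is listed, and in 11 the transcripts with a complete coding sequence held under 50% of TPM on average: Acaca, Cyp51, Dgat1, Dhcr7, Ebp, Idi1, Insig2, Lss, Msmo1, Srebf1 and Tm7sf2. The share was lowest for Srebf1 (4.80%), Insig2 (5.11%), Msmo1 (5.34%) and Ebp (6.21%). On complete coding transcripts alone Ebp differed from H by -3.06 in HpC and -2.96 in pC (limma adjusted p = 1.19e-06 and 2.50e-06). Near copies, at 90% identity or more over at least 300 bases, were found for 8 of the 36 genes, so the levels of these genes may include reads of a copy.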
